A study of Mus musculus with 6 samples.

Results

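Mouse embryonic stem cells with a knockdown of Son lost splicing efficiency at introns of Tmem8, Nt5dc2, Map4k1, Sbf1, Ppp6r1, Dcaf15, Zfp512b, Mllt6, Clcn2 and Ano8, the genes described here. They are 10 of the 9370 genes tested for splicing efficiency and 10 of the 11809 with an intron listed. Their introns account for 161 of the 85015 listed in at least 1 total RNA library and for 129 of the 63309 tested. The members were selected on the values of the same total RNA libraries, that is on the size or the p-value of the change in their introns or in the whole gene. Their changes in these libraries are therefore given as a description and support no test. By size of change over the whole gene the 10 ranked between 1 (Ano8) and 909 (Ppp6r1), and by p-value between 1 (Nt5dc2) and 591 (Mllt6), so they are not the 10 largest losses over whole genes.

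All cells were E14 embryonic stem cells of 129/Ola background, grown in serum with LIF, the cytokine that keeps such cells undifferentiated. They received either a control siRNA or an siRNA against Son by lipofection with Lipofectamine, and RNA was taken 24 h after transfection. Total RNA depleted of rRNA gave 2 libraries per group, and cDNA from 1 control and 1 knockdown library was read on a Nanopore instrument as long reads. The knockdown is partial and early, and the labels do not say whether the libraries of a group came from separate cultures, so p-values may measure technical spread only. The labels of both long-read libraries, the control one included, name the first total RNA knockdown sample as their starting material, so no total RNA library was paired with a long-read library.

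SON is a large nuclear protein with arginine- and serine-rich stretches that helps to build nuclear speckles, the compartments in which splicing factors gather. It is known to promote the removal of introns with weak splice sites, among them introns of cell cycle genes. An intron that is not removed can keep a transcript in the nucleus or bring a premature stop codon into it, which can send the transcript to nonsense-mediated decay. Splicing efficiency is the share of reads at an intron's ends that are split, meaning that they cross from exon to exon, among all split and unsplit reads there. A value of 1 means that every read was spliced.

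In the total RNA libraries split reads at 5′ junctions numbered 10556187 to 16012286 per library, and the tested introns of the 10 genes had a median of 183.5 junction reads per library. Spliced reads of Son itself stood at 273 and 306 CPM (scaled to the split reads of the library) with the control siRNA and at 92.1 and 101 CPM with the Son siRNA. Its spliced reads fell by 1.61 ± 0.087 (SE, n = 2 per group) on the log2 scale (edgeR quasi-likelihood test, Benjamini-Hochberg adjusted p = 3.72e-10). Of 10 embryonic stem cell markers 9 had listed introns, and their summed level was 4823 and 4869 CPM in the controls against 4699 and 4903 in the knockdown libraries. Only 2 of 9 markers of differentiated cells had a listed intron, at a summed 3.03 to 4.21 CPM, and 5 of the 9 had no long read. Among 4 blood cell markers, fixed because Map4k1 is best known from blood cells, only Laptm5 had a listed intron (434 and 502 CPM in the controls, 548 and 646 in the knockdown libraries), while Ptprc and Cd48 had no long read and Coro1a had 31 in the control and 6 in the knockdown library. The part of such cells in the results was not tested.

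All 10 genes had lower splicing efficiency in both knockdown libraries than in either control library, which holds for 27.1% of all genes tested. Each was past an adjusted p of 0.05 in the edgeR fit over all genes, in which 6.98% of genes were called lower. The median difference was −0.166 over the 10 genes and −0.00314 over all genes tested. Ano8 had the lowest knockdown values, at 0.360 and 0.458 against 0.842 and 0.932 in the controls. Tmem8 had 0.605 and 0.595 against 0.920 and 0.890. These were the only members whose efficiency over the gene lay below 0.65 in a knockdown library. Ppp6r1 (0.977 and 0.975 in the controls, 0.932 and 0.898 in the knockdown libraries) and Mllt6 (0.850 and 0.833, then 0.764 and 0.774) had the smallest differences. The call for Mllt6 was lost when any 1 library was left out: its log2 odds ratio of unsplit to split reads was 0.68 with all libraries and 0.58 to 0.77 without 1 of them. Just inside and outside the 10 by size of change stood Ppp6r1 (−0.06102) and Acyp2 (−0.06101), and by p-value Mllt6 and Miga2, whose efficiency was 0.793 and 0.796 in the controls against 0.593 and 0.550 in the knockdown libraries.

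**Figure D1:**
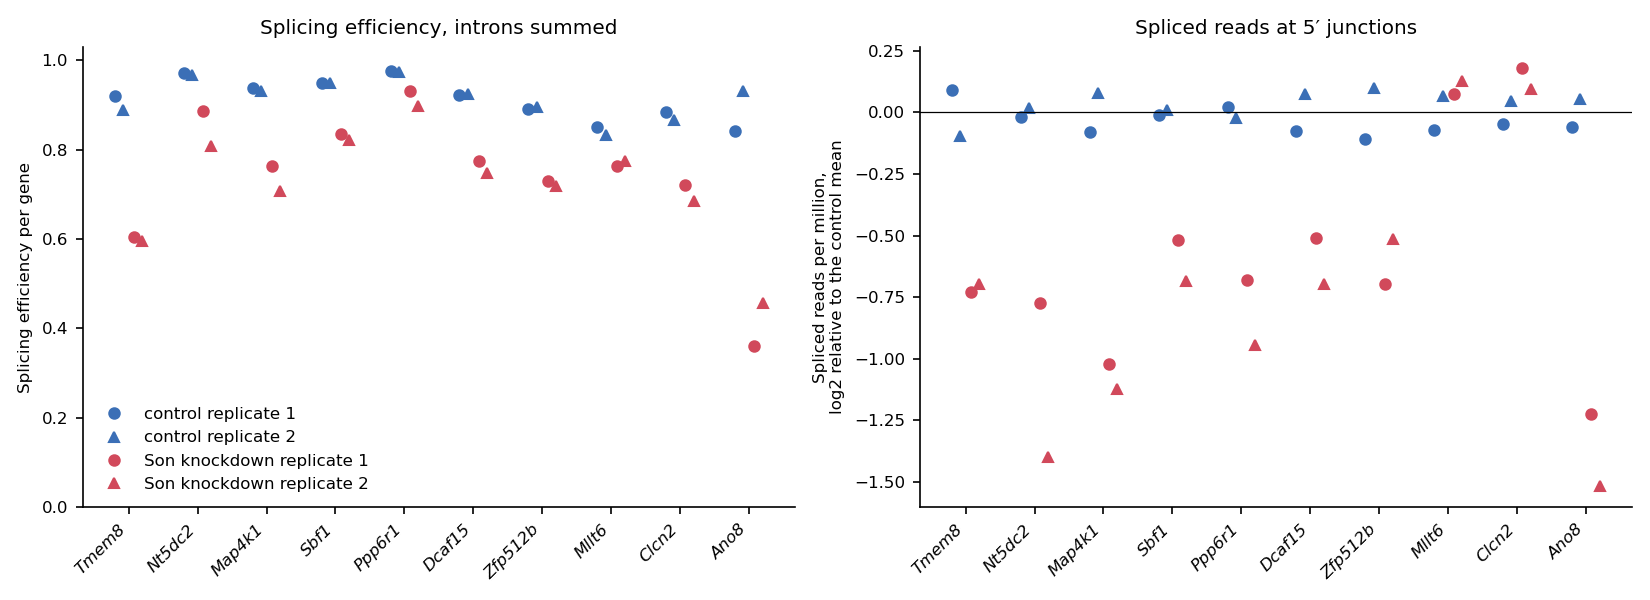
Left, splicing efficiency over the whole gene (y axis, share of junction reads that are split). Right, spliced reads at 5′ junctions (y axis, log2 of CPM relative to the control mean); each point is 1 of the 2 control (blue) or 2 knockdown (red) total RNA libraries, and both knockdown points lie under both control points on the left in every gene but not on the right in Mllt6 and Clcn2.

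Within the genes the loss was uneven. An intron is called affected where the edgeR fit over all introns put it lower at an adjusted p under 0.05, spared where it was not called and its mean difference was above −0.05, and between where it was not called and the difference was −0.05 or lower. Of the 129 tested introns 49 were affected (38.0%), against 1.71% of all introns tested. None was called higher. A further 40 were spared (31.0%, against 84.3% of all introns) and 40 lay between. Both knockdown libraries were below both controls at 105 introns, which holds for 24.3% of all introns, and above them at 3. The spared introns still leaned downward, with 34 of 40 at a negative difference and 6 at a positive one. At 19 of the 40 both knockdown libraries lay below both controls. The limit is set on the difference, so a nearly fully spliced intron can count as spared although its odds changed much. Control efficiency had a median of 0.927 in the affected introns and 0.948 in the spared ones. In the knockdown the medians were 0.620 and 0.925. The number of affected introns rests on the libraries used: it was 23 without control replicate 1, when 163 introns were called lower over the whole table, and 32 without control replicate 2, when 449 were, against 1084 with all 4 libraries. DESeq2 called 32 of the members' introns, and limma on log2 odds called 0, with 82 at an unadjusted p under 0.05.

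**Figure D2:**
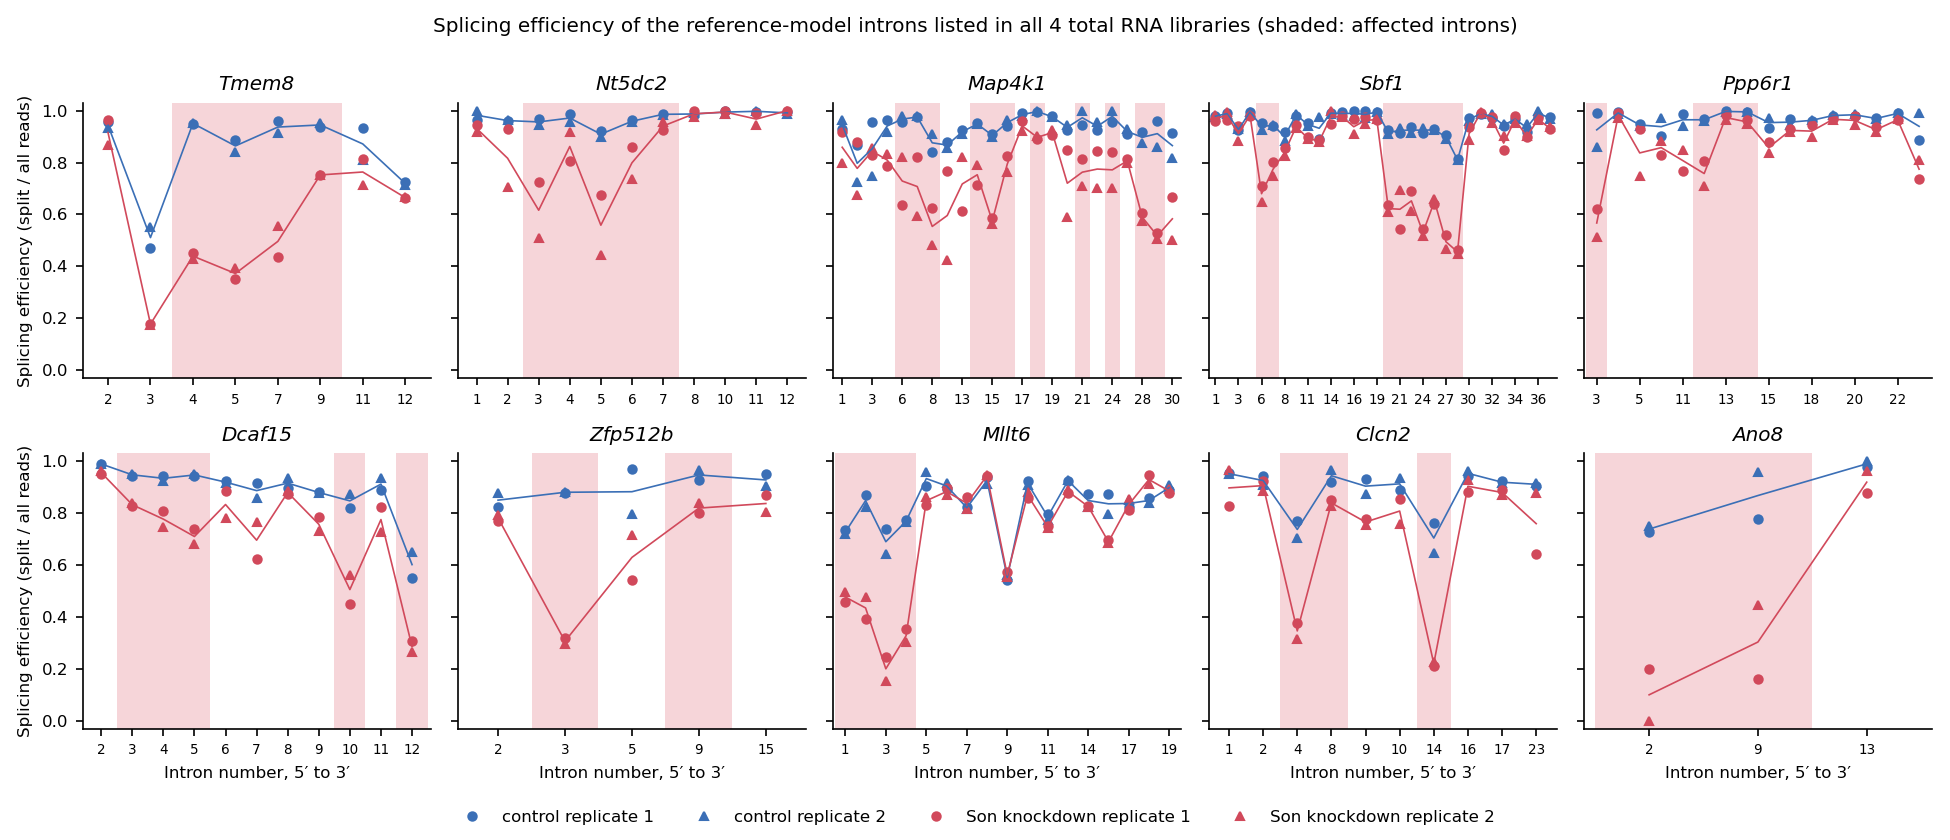
Splicing efficiency (y axis, share of split reads, 0 to 1) of the reference-model introns listed in all 4 total RNA libraries, in order along each gene (x axis, intron number), with points for libraries, lines for the mean of the 2 control (blue) and 2 knockdown (red) libraries, and affected introns shaded. The affected introns form runs in Nt5dc2, Sbf1 and Mllt6, and the lines lie close together over other stretches of these genes.

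Among the enzymes and their regulators, Map4k1 held the most affected introns. It encodes the kinase HPK1, which acts upstream of JNK signalling and is best known as a brake on T cell receptor signalling. Of 23 tested introns (ENSMUSG00000037337, chromosome 7), 11 were affected, namely introns 6, 7, 8, 14, 15, 16, 18, 21, 24, 28 and 29. Introns 1, 4, 9, 13, 19, 20, 22, 26 and 30 lay between, and 2, 3 and 17 were spared. Affected introns thus stood from intron 6 to intron 29, and the gaps among them were not all free of loss. Introns 9 and 30, not called, had differences of −0.271 and −0.282, against −0.159 and −0.099 at affected introns 16 and 18. Junction reads in the shallowest library were 47 and 38 at introns 9 and 30, and 97 and 51 at introns 16 and 18. Intron 29 (chr7:28701264-28701344, 81 nt, at the position the deposited tables give, with GRCm39 the build named in the submitters' processing notes) fell by 0.393, the most in this gene, with an efficiency of 0.962 and 0.861 in the controls against 0.529 and 0.507 in the knockdown libraries. Its call was lost without control replicate 1, where the log2 odds ratio was 2.51 against 3.42 with all libraries. Intron 17 (chr7:28692658-28693392, 735 nt) was the well covered intron with the smallest difference, at 0.990 and 0.979 in the controls against 0.962 and 0.920 in the knockdown libraries. It lies between affected introns 16 (0.942 and 0.965, then 0.826 and 0.763) and 18 (0.993 and 1.000, then 0.892 and 0.902).

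Nt5dc2 encodes a protein of the family with a 5′-nucleotidase domain (ENSMUSG00000071547, chromosome 14). Its affected introns were 5 in an unbroken run, introns 3 to 7, all between 86 and 103 nt long, and introns 1 and 2, in the 5′ UTR, lay between. No tested intron was spared. Intron 5 (chr14:30857772-30857874, 103 nt) fell by 0.350, from 0.921 and 0.898 to 0.675 and 0.443, and intron 3 fell by 0.340, from 0.969 and 0.944 to 0.725 and 0.508. The knockdown libraries differed from each other at these introns by more than the controls did. Intron 7 (chr14:30858125-30858224, 100 nt), with the smallest change of the run, fell by 0.045, from 0.987 and 0.984 to 0.926 and 0.955. Its call was lost without control replicate 1 (log2 odds ratio 2.03) and without knockdown replicate 1 (1.695), against 2.18 with all libraries. The 4 introns left, 8, 10, 11 and 12, had too few unsplit reads to be tested. They were nearly fully spliced in both groups, at 0.943 or more in every library, the lowest being intron 11 in knockdown replicate 2. Stab1 overlaps this gene on the opposite strand, and whether reads were counted by strand is not given in the sources used here, so reads of the overlapping part could belong to either gene.

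Sbf1, also called MTMR5, encodes a myotubularin without phosphatase activity that binds the active phosphatase Mtmr2 (ENSMUSG00000036529, chromosome 15). Its loss was concentrated in the middle of the gene. The 7 tested introns from 20 to 28 (20, 21, 23, 24, 26, 27 and 28) were all affected, as were introns 6 and 7. Introns 8, 11, 12, 30 and 33 lay between, and introns 1, 2, 3, 4, 9, 14, 19, 31, 32, 34, 35 and 38 were spared. Of these, intron 19 went from 0.994 and 0.995 to 0.962 and 0.968. Its log2 odds ratio was 2.56, against 2.23 at affected intron 7, so spared here means a small difference and no call. Intron 27 (chr15:89183824-89183907, 84 nt) fell by 0.403, from 0.904 and 0.892 to 0.522 and 0.467. Its junction reads, with both ends summed, were 255 split and 27 unsplit in control replicate 1 and 128 split and 117 unsplit in knockdown replicate 1. Intron 28, the longest of the run at 3453 nt, went from 0.812 and 0.810 to 0.463 and 0.449. A few introns on, intron 31 (chr15:89178708-89179335, 628 nt) kept a value of 0.988 in both controls and 0.989 and 0.994 in the knockdown libraries. The spliced exon ends on either side of these introns are shown as those with the largest fall and the highest signed difference, with the last 3 bases of the upstream exon and the first base of the downstream exon in capitals.
Sbf1 intron 27: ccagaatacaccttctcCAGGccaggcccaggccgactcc
Sbf1 intron 31: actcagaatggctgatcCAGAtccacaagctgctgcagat

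Both upstream exons of Sbf1 end in CAG, the usual exon end at a 5′ splice site, so these 3 letters do not separate the affected intron from the spared one. All exon ends given run 5′ to 3′ along GENCODE M21 transcripts (GRCm38), and no sequence inside an intron was read.

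Ppp6r1 encodes a regulatory subunit of protein phosphatase 6 (ENSMUSG00000052296, chromosome 7). Its affected introns were 3, 12, 13 and 14. Introns 5, 6, 11, 15 and 23 lay between, and 4 and 17 to 22 were spared. Introns 3 (chr7:4646286-4646367) and 4 (chr7:4646066-4646147) are neighbours and both 82 nt long. Intron 3 went from 0.992 and 0.860 to 0.621 and 0.514, so that it fell by 0.359, whereas intron 4 had 0.994 and 0.988 in the controls against 0.992 and 0.972 in the knockdown libraries. The control libraries differed at intron 3, with 1 unsplit read in control replicate 1 and 16 in control replicate 2, and the call was lost without control replicate 1 (log2 odds ratio 2.20 against 3.40). Introns 13 and 14 were affected by small steps, 13 from 0.999 and 0.995 to 0.982 and 0.964, and 14 from 0.994 and 0.996 to 0.964 and 0.948. Gm44878 and Gm6855 overlap the gene on the other strand, and the limit on strand given for Nt5dc2 applies. The exon ends of the neighbours are shown because the introns share a length and differ in outcome.
Ppp6r1 intron 3: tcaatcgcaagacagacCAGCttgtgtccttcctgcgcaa
Ppp6r1 intron 4: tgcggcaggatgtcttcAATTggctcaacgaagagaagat

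Here the affected intron follows the more usual exon end, CAG, and the spared one follows AAT.

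Dcaf15 encodes a substrate receptor of CUL4 ubiquitin ligases, the one through which aryl sulfonamides such as indisulam bring the splicing factor RBM39 to degradation (ENSMUSG00000037103, chromosome 8). Its affected introns were 3, 4, 5, 10 and 12. Introns 6, 7, 9 and 11 lay between, and 2 and 8 were spared. Intron 10 (chr8:84824670-84824827, 158 nt) fell by 0.341, from 0.820 and 0.873 to 0.448 and 0.562. Its call was lost without either control library (log2 odds ratio 2.76 and 2.17) and without knockdown replicate 1 (2.12), against 2.47. Intron 2 (chr8:84829511-84829584, 74 nt) had 0.990 and 0.987 in the controls against 0.949 and 0.961 in the knockdown libraries, so its groups did not overlap although it was not called. Intron 12 started from 0.551 and 0.651 and went to 0.307 and 0.264. In the controls its split reads at the ends differed 35.0-fold, so the summed value rests mostly on the reads of 1 end.

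Of the nuclear proteins, Mllt6 encodes AF17, a PHD finger protein known as a fusion partner of MLL in leukaemia and as a partner of the histone methyltransferase DOT1L (ENSMUSG00000038437, chromosome 11). Its pattern was split between the start of the gene and the rest. Introns 1 to 4 were all affected. Introns 5 and 16 lay between, and 6, 7, 8, 9, 10, 11, 13, 14, 17, 18 and 19 were spared. Intron 1 went from 0.735 and 0.718 to 0.456 and 0.497, and intron 2 from 0.871 and 0.824 to 0.391 and 0.478. Intron 3 (chr11:97556367-97556555, 189 nt) had the largest fall, by 0.489, from 0.737 and 0.642 to 0.247 and 0.153. Intron 4 went from 0.772 and 0.765 to 0.351 and 0.303, and the next intron, 5, had 0.905 and 0.960 against 0.832 and 0.863. The affected introns of this gene, 189 to 1274 nt long, were thus not of the shortest kind. Intron 18 (chr11:97569882-97571295, 1414 nt) had the highest difference of all members' tested introns, +0.0807, with 0.857 and 0.839 in the controls against 0.946 and 0.912 in the knockdown libraries, and was not called. Of the 11 spared introns, intron 9 had the lowest control values, 0.542 and 0.562, and its split reads at the ends differed 27.7-fold. The exon ends at introns 3 and 18 are shown for the lower and the higher end of this gene's range.
Mllt6 intron 3: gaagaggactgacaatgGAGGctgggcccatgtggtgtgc
Mllt6 intron 18: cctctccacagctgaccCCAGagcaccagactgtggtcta

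Zfp512b encodes a zinc finger protein of the nucleus (ENSMUSG00000000823, chromosome 2). Of 8 tested introns, 3 and 9 were affected. Intron 3 (chr2:181231975-181232262, 288 nt) fell by 0.573, from 0.877 and 0.882 to 0.319 and 0.294. Its reads went from 279 split and 39 unsplit in control replicate 1 to 51 split and 109 unsplit in knockdown replicate 1. Introns 2, 5 and 15 and 2 introns of non-coding models lay between. The 1 spared intron was intron 1 of a model other than the reference (chr2:181232779-181234206, 1428 nt), in the 5′ UTR, with 0.931 and 0.860 in the controls against 0.937 and 0.923 in the knockdown libraries. Prpf6, Uckl1 and Uckl1os overlap this gene in part, and the same limit on strand applies.

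Among the membrane proteins, Tmem8 encodes a lipase that acts on GPI-anchored proteins, also called PGAP6 (ENSMUSG00000024180, chromosome 17). Of 8 tested introns 4, 5, 7 and 9 were affected, 3, 11 and 12 lay between, and intron 2 was the only one spared. Intron 4 (chr17:26336513-26336712, 200 nt) fell by 0.511, from 0.950 and 0.951 to 0.450 and 0.429, the lowest p-value of any intron in the fit. Intron 5 fell by 0.491, from 0.888 and 0.840 to 0.351 and 0.394. Intron 3, spliced at only 0.471 and 0.552 in the controls, had 0.180 and 0.176 in the knockdown libraries and was not called. Intron 2 (chr17:26335908-26335992, 85 nt) had 0.955 and 0.932 against 0.965 and 0.866, so its groups overlapped. Its exon ends are set beside those of intron 4 as the spared and the most affected intron.
Tmem8 intron 4: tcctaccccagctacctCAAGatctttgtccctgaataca
Tmem8 intron 2: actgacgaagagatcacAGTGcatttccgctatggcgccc

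Clcn2 encodes the chloride channel ClC-2 (ENSMUSG00000022843, chromosome 16). Its affected introns were 4, 8 and 14. Introns 1, 9, 10 and 23 lay between, and 2, 16 and 17 were spared. Intron 14 (chr16:20528066-20528319, 254 nt) fell by 0.483, from 0.762 and 0.645 to 0.212 and 0.228. Intron 4 fell by 0.391, from 0.770 and 0.704 to 0.378 and 0.314. Both were among the less well spliced introns of the gene in the controls already. Intron 2 (chr16:20532210-20532362, 153 nt) had 0.942 and 0.908 in the controls against 0.924 and 0.886 in the knockdown libraries. Only 10 of the 23 introns of the reference model are listed in the total RNA tables. Fam131a overlaps the gene on the other strand, and the limit on strand given for Nt5dc2 applies.
Clcn2 intron 14: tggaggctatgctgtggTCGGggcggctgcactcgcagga
Clcn2 intron 2: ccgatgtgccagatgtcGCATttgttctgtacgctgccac

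Ano8 encodes an anoctamin that tethers the endoplasmic reticulum to the plasma membrane (ENSMUSG00000034863, chromosome 8). It was the member with the fewest reads, at 5.995 and 6.48 CPM of spliced reads in the controls against 2.67 and 2.18 in the knockdown libraries. Only 3 of its introns could be tested. Intron 2 had 0.726 and 0.750 in the controls against 0.200 and 0 in the knockdown libraries. It fell by 0.638, the most of any intron tested, but had only 26 junction reads in the shallowest library. That is under the 50 asked of introns named in full. Intron 9 (chr8:71935055-71935150, 96 nt) went from 0.778 and 0.957 to 0.160 and 0.446, and its call was lost without control replicate 2 (log2 odds ratio 3.11 against 4.11). Intron 13, of 1093 nt, had 0.978 and 1.000 against 0.877 and 0.960 and lay between. Dda1 overlaps Ano8 on the other strand, and the limit on strand given for Nt5dc2 applies.

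Outcomes were also counted over neighbouring introns. Among 86 pairs of consecutive tested introns, both were affected in 22, both were spared in 20, and an affected intron stood directly beside a spared one in 5. These pairs share their gene and its depth, so they are a description and not independent observations.

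The affected introns were short, but so were the members' tested introns as a whole. Their median lengths were 101 nt and 120 nt, against 165.5 nt in the spared introns and 1128 nt over all tested introns. At most 150 nt long were 33 of 49 affected and 17 of 40 spared introns, 52.7% of the members' tested introns and 12.1% of all. Gene by gene the order was mixed. Affected introns had the longer median in Tmem8, Sbf1 (108 against 103 nt in the spared ones), Dcaf15 and Mllt6 (700.5 against 616 nt). They had the shorter median in Map4k1 (89 against 602 nt), Ppp6r1, Zfp512b and Clcn2. Several of these orders rest on few spared introns: 1 each in Tmem8 and Zfp512b, 2 in Dcaf15, and 3 each in Map4k1 and Clcn2. Among member introns of at most 100 nt 24 of 49 were affected, and among those over 1000 nt 4 of 19 were. Over the whole table the corresponding shares were 8.28% and 0.221%, so in both sets shorter introns were called more often. The exons flanking affected introns had a median GC content of 55.5%, the flanks of spared introns 59.8% and those of all introns 50.5%. Over the whole table the order was the other way, with 56.5% for affected and 49.5% for spared introns. The upstream exon ended in AG at 27 of 49 affected introns (55.1%), at 19 of 40 spared introns (47.5%) and at 57.6% of all introns. Over the whole table it did so at 52.96% of affected and 57.59% of spared introns, again the other way. The downstream exon began with G at 44.9% of affected and 50.0% of spared introns. The 49 affected introns all interrupt coding sequence. Introns of 1 gene share their source, so none of these differences was tested. The depth behind the classes was similar, at a median of 146 junction reads in the shallowest library for affected introns and 183 for spared ones, but only 67.5 for those that lay between.

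**Figure D3:**
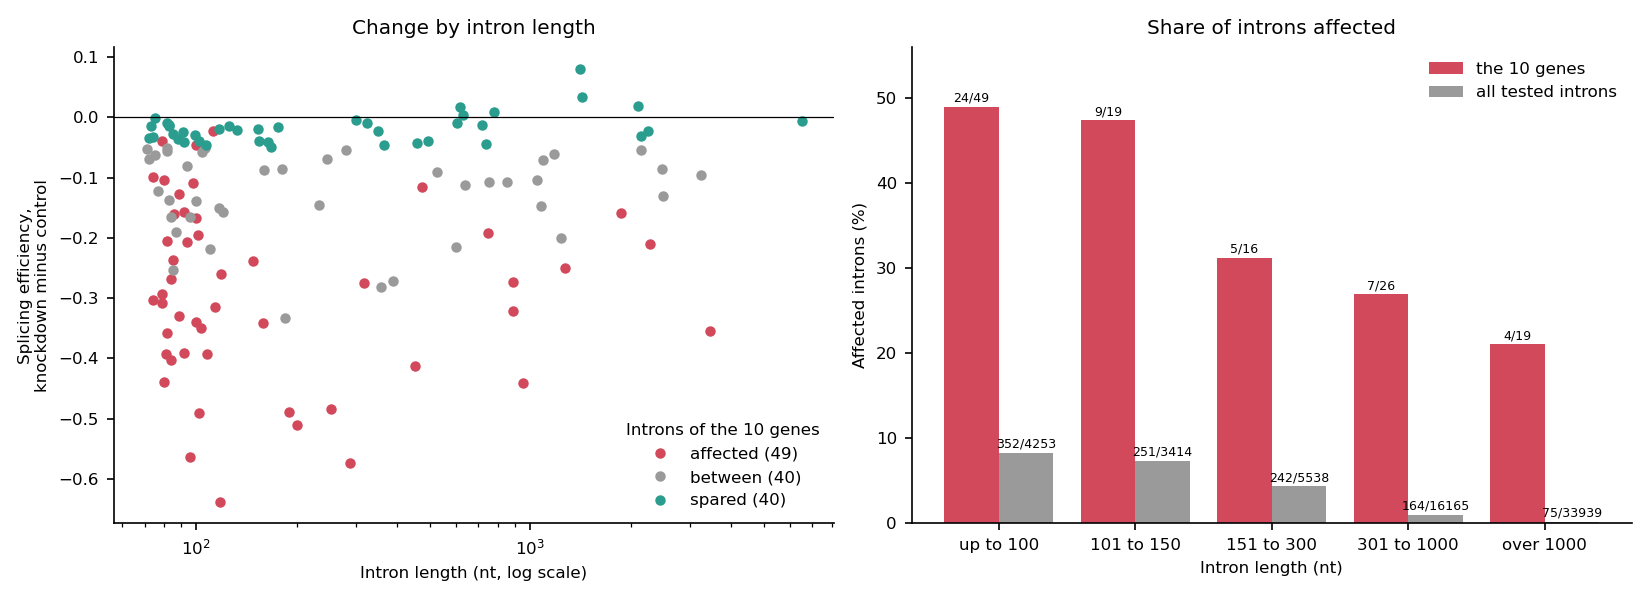
Left, difference in splicing efficiency, knockdown mean minus control mean (y axis), against intron length in nucleotides (x axis, log scale) for the 129 tested introns of the 10 genes, coloured by class. Right, share of introns affected (y axis, percent) by length in the 10 genes and in all tested introns, with the counts above the bars; both sets of bars are highest at up to 100 nt (24 of 49 and 352 of 4253).

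Both ends of the affected introns carried more unsplit reads. Summed over the 49 introns and 2 libraries per group, unsplit reads went from 1141 to 3814 at the 5′ junctions and from 1282 to 4021 at the 3′ junctions, while split reads went from 14591 to 7250 at the 5′ junctions. In the 40 spared introns the 5′ junctions had 1044 unsplit reads in the controls and 1347 in the knockdown libraries, and 14836 and 12545 split reads. The ratio of unsplit to split reads was higher in the knockdown at both ends in 49 of 49 affected introns, which the choice of these introns largely fixes.

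Split reads also tell how much spliced RNA was left. Scaled to the split reads of each library, they were lower in the knockdown at 48 of 49 affected introns, 34 of 40 that lay between and 28 of 40 spared introns. The median log2 ratios of knockdown to control were −1.14, −0.51 and −0.31. The classes were set from the same split reads, which largely fixes this order. These values were not computed over all introns. Summed over a gene, spliced reads fell in 8 of the 10 genes by the edgeR fit over all genes, in which 6.76% of genes were called fewer. Fewer cells with the RNA and less RNA per cell cannot be told apart in these bulk samples. Ano8 fell by 1.36 ± 0.28 (SE, n = 2 per group) on the log2 scale, the most of the 10, followed by Map4k1 (91.4 and 102 CPM in the controls, 47.6 and 44.4 in the knockdown libraries) and Nt5dc2 (134 and 137, then 79.4 and 51.3). Ppp6r1 fell by 0.83, Tmem8 by 0.74, Zfp512b by 0.63, and Sbf1 and Dcaf15 by 0.62. Zfp512b was not called without control replicate 2, at a log2 fold change of −0.53. These reads share the split reads with the measure that chose the genes, so the calls describe the members only.

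**Figure D4:**
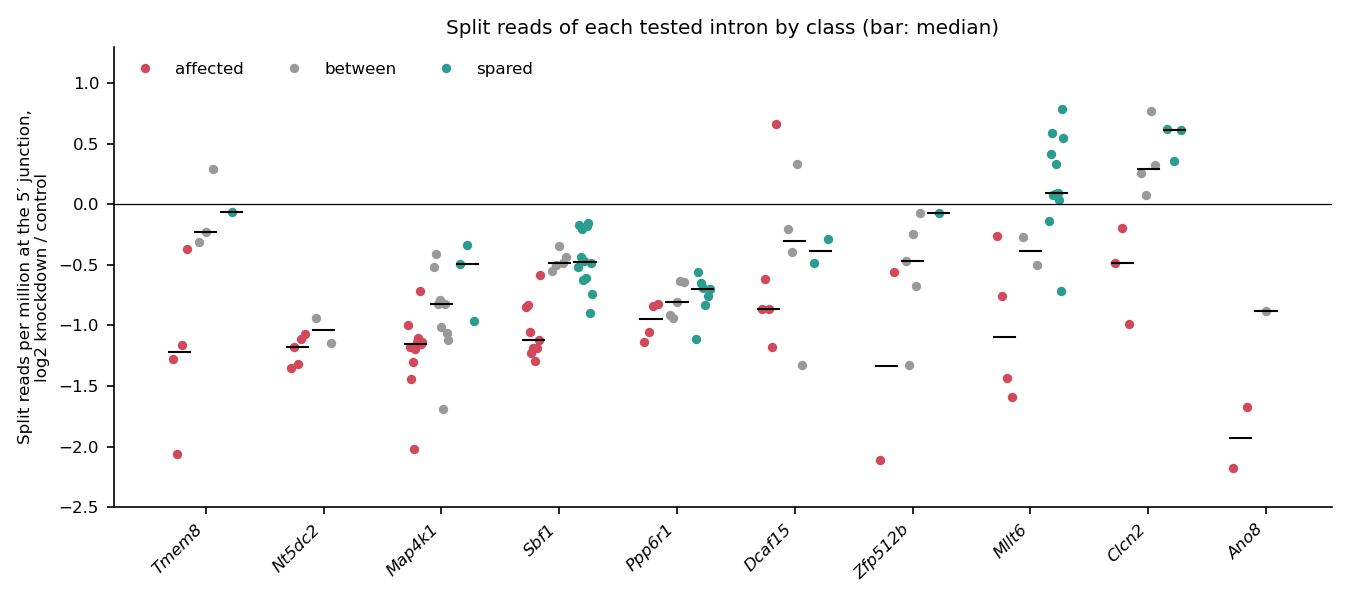
Log2 ratio of knockdown to control split reads at the 5′ junction (y axis, scaled to each library's split reads) for every tested intron (points), by gene (x axis) and class (colour), with bars at the median. In Mllt6 and Clcn2 the affected introns lie below 0 and the spared ones mostly above it, whereas in Ppp6r1 and Sbf1 the spared introns lie below 0 as well.

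Mllt6 and Clcn2 were the exceptions, with no call for spliced reads over the gene. Mllt6 had 217 and 239 CPM of spliced reads in the controls against 241 and 249 in the knockdown libraries, a log2 fold change of +0.08 ± 0.079 (SE, n = 2 per group). Clcn2 had 68.8 and 73.5 against 80.6 and 76.1, or +0.12 ± 0.10 (SE, n = 2 per group), and −0.21 when only its best covered intron was counted. Inside these genes the split reads differed by intron, where again the classes were set from the same reads. In Mllt6 the median log2 ratio was −1.10 over the 4 affected introns and +0.09 over the 11 spared ones. In Clcn2 it was −0.48 over the 3 affected and +0.61 over the 3 spared introns.

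The long reads give the transcripts of the 10 genes in other libraries, 1 per group, so nothing was tested and the intervals cover counting error only. The control library held 3080426 reads and the knockdown library 1874851. Of these, 217 in the control and 37 in the knockdown library were reads of Son. Counts were low: the 10 genes had 388 reads in the control and 198 in the knockdown library, and 45 of their 69 transcripts had a read. The median log2 ratio of the 10 genes, of CPM with 0.5 reads added, was −0.33, against −0.011 over the 9616 genes with at least 20 reads. It was below 0 in 7 of the 10, against 51.1% of all genes. By this CPM ratio, Map4k1 (37 reads in the control, 10 in the knockdown library), Ppp6r1 (52 and 16), Nt5dc2 (31 and 11) and Zfp512b (16 and 6) were at least 1.5-fold lower. This size was reached by 12.5% of all genes. Dcaf15 had 40 and 19 reads, Mllt6 60 and 29, and Sbf1 33 and 19, which were 10.7 and 10.1 CPM for Sbf1. Tmem8 (31 and 21), Clcn2 (44 and 35) and Ano8 (44 and 32) had a higher CPM in the knockdown library.

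Some transcript models are annotated with the biotype retained intron, and the share of reads on these was 70 of 388 (18.0%, 95% Wilson interval 14.5 to 22.2%) in the control and 62 of 198 (31.3%, 25.3 to 38.1%) in the knockdown library. Clcn2 and Ano8 gave most of these reads and had a higher CPM in the knockdown library, so the pooled share depends on their part of all reads. It cannot be read as a rise across the 10 genes, and no share over all genes stands beside it. Clcn2 had 15 of 44 reads on such models (34.1%, interval 21.9 to 48.9%) in the control and 20 of 35 (57.1%, interval 40.9 to 72.0%) in the knockdown library. One of its models, ENSMUST00000153075, which keeps introns 18 and 19, had 8 and 12 reads, and its coding model ENSMUST00000007207 had 16 and 9. Ano8 had 39 of 44 reads (88.6%, interval 76.0 to 95.05%) on ENSMUST00000212768, which keeps introns 11, 12 and 16, already in the control, and 32 of 32 (100%, interval 89.3 to 100%) in the knockdown library. So most long reads of Ano8 were assigned to a retained-intron model in either condition, while its introns 2 and 9 were mostly spliced in the control total RNA. Whether reads of Dda1, which overlaps Ano8, are among these long reads was not tested. In Tmem8 the count was 3 of 31 reads and then 6 of 21, on intervals that overlap. Reads on such models were 6 and 0 for Map4k1, 3 and 1 for both Nt5dc2 and Ppp6r1, and 1 and 2 for Sbf1. The 0 of 10 reads of Map4k1 in the knockdown library allows a share of up to 27.8% by the Wilson interval. Zfp512b had 0 of 16 and 0 of 6, which allow up to 19.4% and 39.0%, and the tables hold no such model of Dcaf15 or Mllt6. A Zfp512b model annotated as protein coding, ENSMUST00000128553, also keeps an intron of the reference model, intron 4, and its 8 reads in the control and 1 in the knockdown library are not in these shares. None of the introns kept in the retained-intron models of Ano8, Clcn2 and Tmem8 is listed in the total RNA tables, so the assays look at different introns of these genes.

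**Figure D5:**
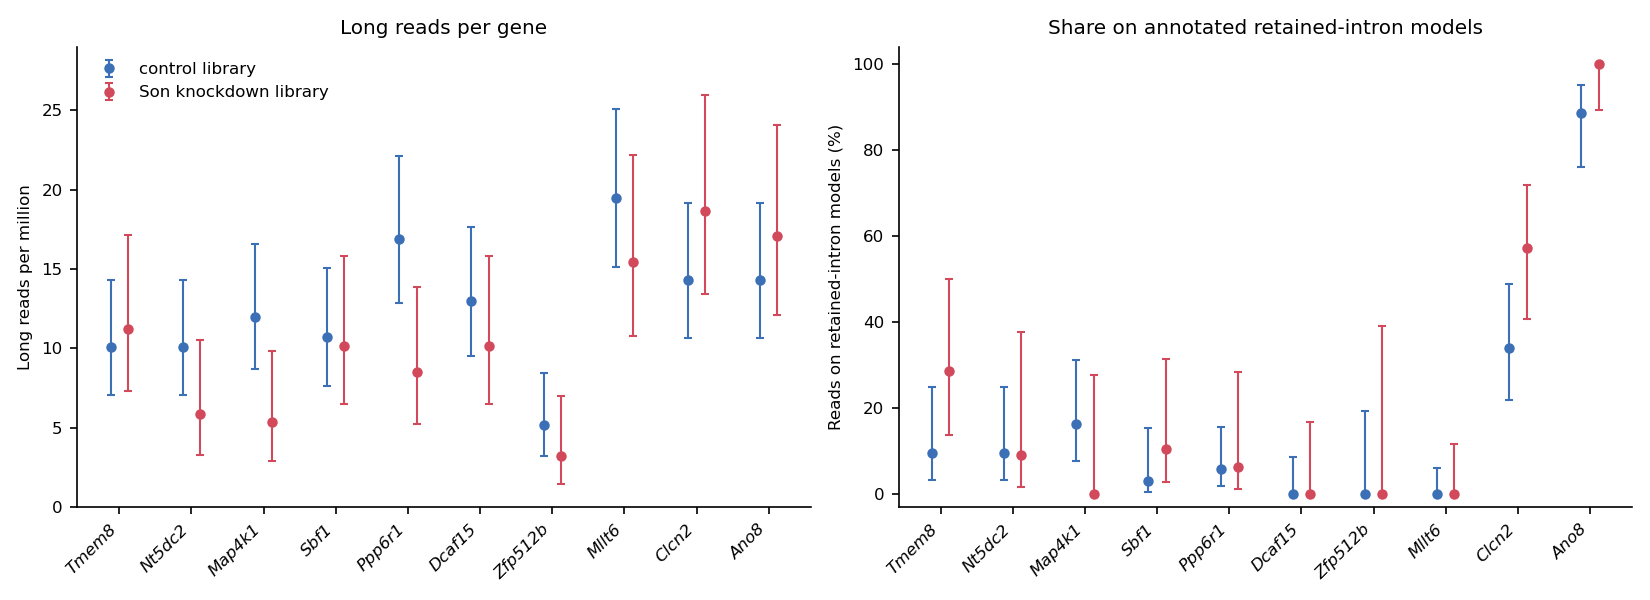
Left, long reads of each gene in CPM (y axis) in the 1 control (blue) and 1 knockdown (red) Nanopore library. Right, percent of the gene's reads on models annotated as retained intron (y axis); bars are 95% intervals for counting error, and Clcn2 and Ano8 have the highest percentages in both libraries.

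Other transcripts with at least 20 reads over both libraries were mostly the main coding models. Their counts are not scaled here, and the knockdown library held fewer reads in all. In the control and knockdown library they were 48 and 15 for ENSMUST00000064099 of Ppp6r1, 32 and 13 for ENSMUST00000210279 of Dcaf15, and 20 and 7 for ENSMUST00000085835 of Map4k1. For the coding models of Mllt6 they were 27 and 7 (ENSMUST00000044730) and 25 and 12 (ENSMUST00000107586). ENSMUST00000227096 of Nt5dc2 had 17 and 9 (5.52 and 4.80 CPM), and ENSMUST00000025010 of Tmem8 had 18 and 11 (5.84 and 5.87 CPM). In Sbf1 the coding model ENSMUST00000123791 had 18 and 5 reads and ENSMUST00000144585 had 8 and 2, while a model annotated for nonsense-mediated decay, ENSMUST00000124576, had 5 and 10. The share of Sbf1 reads on models that are not protein coding was 18.2% (interval 8.61 to 34.4%) in the control and 63.2% (interval 41.0 to 80.9%) in the knockdown library, the largest difference in this share among the 10 genes. It was also higher in the knockdown library in Tmem8 (9.68% and 28.6%), Mllt6 (13.3% and 34.5%), Ano8 (88.6% and 100%) and Clcn2 (63.6% and 71.4%), each on intervals that overlap. In Dcaf15 (1 of 40 and 1 of 19 reads) and Ppp6r1 (3 of 52 and 1 of 16) a slightly higher share rests on 1 knockdown read. No share over all genes stands beside these. Map4k1 went the other way (11 of 37 and 2 of 10 reads), Nt5dc2 had 9.68% and 9.09%, and Zfp512b had no read on such models.

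Relatives and partners of the 10 genes were listed as well. The list held 32 genes, drawn up by sequence family or complex. It covered other MAP4 kinases, phosphatase 6 subunits, CUL4 ligase components with RBM39, CLC channels, anoctamins and myotubularins. Relatives of Nt5dc2, Tmem8 and Zfp512b, and relatives and partners of AF17, were also on it. Of 28 tested, 3 were called lower in splicing efficiency (6.98% of all genes were) and none higher, with a median difference of −0.00413. Map4k2, a kinase of the same family as Map4k1, fell by 0.174, from 0.952 and 0.928 to 0.758 and 0.775 (edgeR adjusted p = 1.23e-09), with 5 of its 10 tested introns affected. Clcn7, a lysosomal chloride transporter, fell by 0.135 (0.816 and 0.763, then 0.697 and 0.612, edgeR adjusted p = 0.000783), with 3 of 22 introns affected. Dot1l, the methyltransferase bound by AF17, fell by 0.0762 (0.920 and 0.890, then 0.839 and 0.819, edgeR adjusted p = 0.000468), with 1 of 24. Without control replicate 1 the number called was 1. The list's 389 tested introns had 9 affected among them, beside 1.71% of all introns tested. Their median length was 1068 nt, while the tested introns of Map4k2 had a median of 82.5 nt. Spliced reads fell for Map4k2, Map4k5, Dot1l and Clcn7 among 29 tested, where 6.76% of all genes were called fewer. They rose for Nt5dc1, where 186 of all 9474 genes tested were called more. Among direct partners of the members, Mtmr2 (log2 odds ratio −0.26), Ddb1 (−0.06) and Ppp6c (−0.39) were not called, whereas Dot1l (0.99) was.

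Outside the list, the called genes with at least 5 listed introns whose values over the 4 libraries lay nearest to the members' median (0.921 and 0.928 in the controls, 0.764 and 0.733 in the knockdown libraries) were Sigirr, Itgb4 and Prkag1. Sigirr, a receptor that dampens interleukin-1 signalling, had 0.903 and 0.914, then 0.771 and 0.722. Itgb4, an integrin subunit, had 0.908 and 0.906, then 0.776 and 0.747. Prkag1, a subunit of AMP-activated kinase, had 0.932 and 0.915, then 0.767 and 0.764. The distance that ranked them was Euclidean, over 4 libraries.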

How the data were processed

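Total RNA was measured in 2 control and 2 Son knockdown libraries, and long-read cDNA in 1 of each. Per the labels, the authors ran SPLICE-q on the total RNA and deposited, for every intron, split and unsplit read counts per junction and a splicing efficiency score given as a fraction. The long-read tables are deposited counts per transcript. SAMtools, minimap2 and GRCm39 are named in the submitters' processing notes, with no role; library strandedness is not given in the sources used here. Intron positions are those of the deposited tables. Introns lying inside an exon of another annotated model are nearly absent from them (658 of 84558 matched introns, 0.778%): of the members' 204 reference-model introns 150 are listed, and none of the 22 that lie inside such an exon.

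Split and unsplit counts of both junctions were summed per intron, and a spliced read counts at each end. Introns listed in all 4 libraries with at least 10 split and 10 unsplit reads were tested with edgeR 4.0.16 (R 4.3.3), quasi-likelihood, with 1 term per library, 1 for unsplit reads and 1 for unsplit reads in the knockdown, and Benjamini-Hochberg adjustment over all introns. Of the members' introns 24 were listed in fewer than 4 libraries and 8 had fewer than 10 unsplit reads. These 8, in Nt5dc2 and Sbf1, were spliced at 0.909 or more in every library. The minimum thus left out well spliced introns, which count neither as spared nor among the tested introns. Genes were tested in the same way on sums over introns listed under 1 gene, and spliced reads on 5′ split reads with TMM scaling and filterByExpr. Exon ends (20 bases each side) and flanking GC content (up to 100 bases each side) were read from GENCODE M21 transcripts (GRCm38) matched by transcript, intron number and intron length; intron sequence was not read. The code was tested on simulated data. The members, the lists of relatives and markers, and the rule for named features were chosen with earlier results of these data known. The rule named, in each gene, every tested intron by number and in full the introns with the largest fall and the highest difference among those with at least 50 junction reads in every library; transcripts with at least 20 long reads; called relatives; and the 3 nearest genes. Introns added outside this rule were chosen after their values were seen. Alternatives were each junction alone, DESeq2 1.42.0, limma 3.58.1, other scaling, no read minimum, another limit for spared introns, other long-read settings, the replicate block and leaving out each library.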

Additional observations from a re-analysis of the deposited data

How the results depend on the processing

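With 49 introns of the 10 genes called lower, the 5′ junction alone gave 23, the 3′ junction alone 27 and DESeq2 32, all of them among the 49. limma on log2 odds gave 0 calls for introns (82 at an unadjusted p under 0.05), 0 for the 10 genes (10 at an unadjusted p under 0.05) and 0 for their relatives (4), as it did for all 63309 introns (5696 at an unadjusted p under 0.05). Leaving out 1 library gave 23 to 47 introns, 9 genes in each case, 7 to 8 genes with fewer spliced reads and 1 to 4 relatives, with the lone library of a group assumed to vary like those of the other group. Spliced reads of the best covered intron of each gene gave 5 genes and turned Clcn2 to a log2 fold change of −0.2055. Setting the limit for spared introns at −0.02 left 20 of 40. Leaving out 1 library, log2 odds ratios turned for 3 introns that were not called: Tmem8 intron 2 (−0.6333 without knockdown replicate 2, up to 1.435), Ppp6r1 intron 4 (−0.06907 without knockdown replicate 2, up to 1.8) and Zfp512b intron 1 (−1.114, up to 0.01612 without control replicate 2). When split reads and unsplit reads were each given their own scaling, the median over all introns shifted by −0.1509 in log2 odds and that over all genes by −0.1399, and 47 of the 49 introns and all 10 genes were still called. The long-read median was −0.2035 with a pseudocount of 5 reads, and −0.33 without the 100 most abundant transcripts. Causes were not tested. Depth limited Ano8 most, and low counts limit every long-read value.

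With the replicate number as a block, 53 introns, 10 genes, 8 genes by spliced reads and 6 relatives were called, against 49, 10, 8 and 3. The samples share only a number: deviations from the group means correlated at r = 0.0351 over 9370 genes for log2 odds and at −0.00177 over 9474 genes for spliced reads.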
